A study of Mus musculus with 25 samples.

Results

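Epididymal white adipose tissue (eWAT), the fat pad beside the testis and epididymis, was compared between wild type mice on a high-fat diet (HFD) and wild type mice on a normal diet (ND). The libraries were those whose titles name eWAT, wild type and one of these diets, which are 9 of the 25 libraries of the series, 5 on HFD and 4 on ND, each from 1 mouse. All were male C57BL/6N mice by the strain label, although the treatment text names C57BL/6NJ, and none carried the *Acod1* deletion that other groups of the series have. The HFD, in which fat supplied 60% of calories, was fed for 16 weeks from 5 weeks of age, the ND mice received normal chow with the same time of 16 weeks on their labels, and the mice were caged singly. RNA came from snap-frozen whole tissue, so that every cell type of the pad contributed, and in such bulk samples fewer cells of a type and less RNA per cell cannot be told apart. The 14948 genes that averaged 1 count or more per M counted reads over these libraries were tested. Levels are given in CPM, the count scaled to the library's total after adjustment of that total by the TMM method. Listed genes under the level for testing stay out of the counts of members below. A gene that reached the level through 1 diet only had to differ between the diets.

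White adipocytes store triglyceride after meals and release fatty acids between them, under the control of insulin and of catecholamines, and they secrete hormones such as leptin and adiponectin. In diet-induced obesity the epididymal pad of the mouse is known for adipocytes that enlarge and die, for macrophages that surround and digest the dead cells, and for a matrix that thickens. Adipose tissue macrophages take up the freed lipid through lysosomes, and a subset known as lipid-associated macrophages is marked by the receptor TREM2.

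Counted reads per library ranged from 40.53 to 52.34 M on ND and from 38.93 to 51.66 M on HFD, and mitochondrially encoded genes took 4.67% to 8.61% and 3.96% to 7.45% of them. The library numbers in the column headers of the files begin with 2 different prefixes, taken here as 2 series, with every ND library and HFD library 5 in series 2 and HFD libraries 1 to 4 in series 1, so that diet and series nearly coincide. Whether the prefixes mark separate sequencing runs is not given in the sources used here. The last of the 5 HFD values in each sentence below is that of library 5, and a series-adjusted value comes from a fit with the series as a term, in which the diet change rests on that 1 HFD library. Unless directions are given, the number called beside a series-adjusted median takes higher and lower genes together. The first principal component, 56.5% of the variance, separated the diets, with HFD library 5 nearest to the ND libraries. Genes of the epididymis were high in some libraries. The 14 genes of an epididymis list summed to 2.58, 8704, 61.8 and 2.47 RPM (counted reads scaled to the library's total with no TMM adjustment) in ND libraries 1 to 4 and to 2.16, 0.333, 0.243, 1.28 and 112.5 in HFD libraries 1 to 5, so that ND library 2, ND library 3 and HFD library 5 stand apart. They are called the 3 libraries below, and a list's counts without them are given where a count moved by more than 1.5 times. Without them no HFD library of series 2 is left, so that diet and series coincide fully in those counts. *Acod1*, which makes itaconate, had counts of 0, 0, 0 and 2 on ND and of 9, 0, 2, 3 and 0 on HFD, and was too low to test.

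Levels differed between the diets for a large share of the genes. Of the 14948 genes tested with edgeR's quasi-likelihood test, 3868 (25.9%) were higher and 4219 (28.2%) lower on HFD. The threshold was the study's, an adjusted p under 0.1, and the median log2 fold change over all genes was -0.04. The change was at least 2-fold in 1632 of the higher and 1615 of the lower genes, and at least 4-fold in 606 and 589. Every HFD library lay above every ND library in 2554 of the higher genes (66.0%), and below in 2680 of the lower genes (63.5%). With the series as a term, 1030 genes were higher and 581 lower. Without HFD library 5 the calls were 3731 and 3951, and without the 3 libraries they were 2612 and 2483. Both of these fits lack HFD library 5, so that diet and series coincide fully in them. Of 54 key genes of the lists that were called, 18 were also called with the series as a term, 35 kept their direction without a call, and *Cpa3* turned. As the main calls used HFD library 5 and the same ND libraries, a kept direction is in part built in. Without the 3 libraries 48 of the 54 were called, and *Cdkn2a*, *Dgat2*, *Elovl6*, *Inhbb*, *Npr3* and *Pnpla2* were not. The count of each list below is to be read against the 25.9% and 28.2% of all genes. In the glycolysis, WNT signalling, fatty acid uptake and hypoxia lists, among others, both shares were under these. The gene with the smallest adjusted p was *Thbd* (ENSMUSG00000074743, chromosome 2, 148404466 to 148408188), which encodes the endothelial anticoagulant thrombomodulin. It measured 215, 195, 203 and 205 CPM in the ND libraries and 49.2, 48.03, 52.4, 54.7 and 52.9 CPM in the HFD libraries. Every HFD library was far below every ND library (log2 fold change -1.99, SE 0.08, adjusted p = 6.14e-06).

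**Figure D1:**
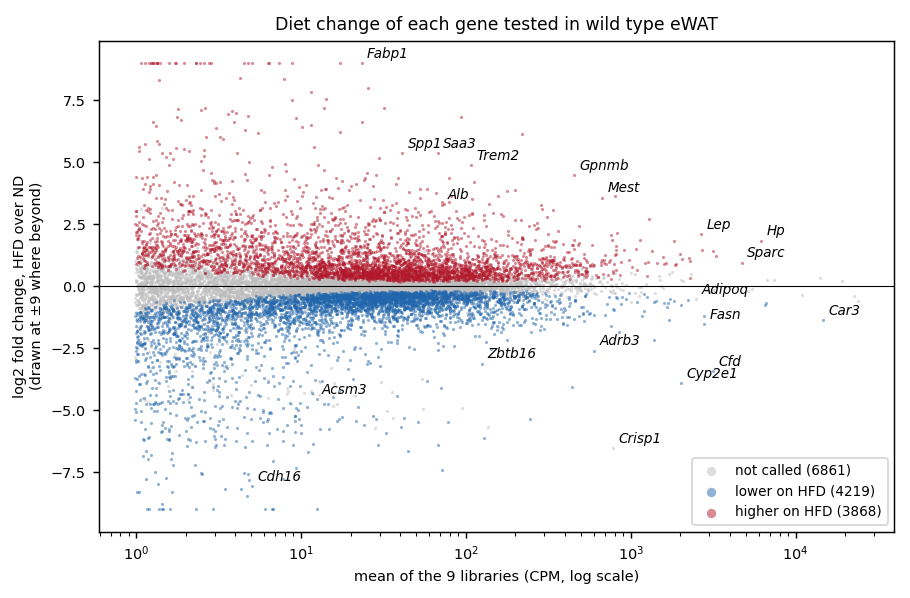
Each point is 1 of the 14948 genes. The horizontal axis gives its mean CPM over the 9 libraries on a log scale. The vertical axis gives its log2 fold change on HFD, limited to between -9 and 9. Higher genes (3868) are red, lower genes (4219) blue and the 6861 not called grey, and the calls in both directions spread over the whole range of levels.

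Macrophage genes rose as a group. Of the macrophage core list, 19 of 20 members tested rose and 1 fell (median log2 fold change 2.23, series-adjusted median 1.13 with 5 called, and 18 higher and 0 lower without the 3 libraries), against the 25.9% and 28.2% of all genes called in these directions. *Adgre1* (ENSMUSG00000004730, chromosome 17, 57358691 to 57483527), which encodes the macrophage surface protein F4/80, measured 44.1, 21.4, 25.0 and 23.7 CPM in the ND libraries and 387, 246, 85.3, 265 and 62.4 CPM in the HFD libraries. The lowest HFD libraries were 3 and 5 and still lay above every ND library (log2 fold change 2.87, SE 0.54, adjusted p = 0.00311), although the series-adjusted value was 1.13 (adjusted p = 0.269). *Cd68* (ENSMUSG00000018774, chromosome 11, 69664213 to 69666153), for a lysosomal membrane protein of phagocytes, measured 38.9, 18.3, 18.9 and 15.6 CPM in the ND libraries and 650.5, 345, 189, 341 and 176 CPM in the HFD libraries. No HFD library came near the ND range (log2 fold change 3.89, SE 0.48, adjusted p = 0.000681). *Csf1r*, the receptor of the growth factor that macrophages need, rose from 75.9 ± 14.5 to 239.9 ± 106 CPM (log2 fold change 1.66, adjusted p = 0.00390, series-adjusted 0.66 and not called). *Lgals3*, which encodes galectin-3, a lectin of activated macrophages, rose from 110.3 ± 36.6 to 1358 ± 591 CPM (log2 fold change 3.62, adjusted p = 0.000418). *Spi1*, the transcription factor PU.1 of the myeloid lineage, rose from 8.10 ± 2.66 to 70.7 ± 36.1 CPM (log2 fold change 3.12, adjusted p = 0.000805). *Aif1*, which encodes the actin-binding protein IBA1, rose from 3.81 ± 0.626 to 25.8 ± 11.2 CPM (log2 fold change 2.76, adjusted p = 0.000666). The 1 member that fell was *Mertk*, a receptor for the engulfment of dying cells, with 74.4, 83.9, 114 and 84.7 CPM in the ND libraries and 87.4, 40.6, 36.1, 33.4 and 27.5 CPM in the HFD libraries. Its groups overlapped, with HFD library 1 at the level of the ND libraries (log2 fold change -0.99, SE 0.31, adjusted p = 0.0289, series-adjusted -1.69 and not called). The summed list was 986 to 1524 CPM on ND and 3043 to 9340 CPM on HFD, with HFD library 1 highest and library 5 lowest.

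Nearly every gene of the lipid-associated macrophage list rose, and 17 of 18 members tested rose (median log2 fold change 3.23, series-adjusted median 2.23 with 9 called). *Trem2* (ENSMUSG00000023992, chromosome 17, 48346401 to 48354147), the lipid receptor that marks these cells, measured 13.1, 5.34, 4.94 and 2.31 CPM in the ND libraries and 395, 184, 99.5, 190.4 and 79.1 CPM in the HFD libraries. ND library 1 was the highest of its group and still far below the lowest HFD library, 5 (log2 fold change 4.88, SE 0.66, adjusted p = 0.000942). *Gpnmb* (ENSMUSG00000029816, chromosome 6, 49036546 to 49070929), a lysosomal glycoprotein, measured 74.6, 30.8, 26.4 and 10.5 CPM in the ND libraries and 1828, 853, 397, 571 and 313 CPM in the HFD libraries. The order of the libraries was nearly that of *Trem2*, with HFD library 1 highest (log2 fold change 4.48, SE 0.73, adjusted p = 0.00170). *Itgax*, the integrin CD11c of inflammatory macrophages and dendritic cells, rose from 12.4 ± 10.9 to 123 ± 68.9 CPM (log2 fold change 3.305, adjusted p = 0.00302, series-adjusted 2.54 and not called). *Mmp12*, the macrophage elastase, rose from 48.5 ± 54.7 to 473 ± 344 CPM (log2 fold change 3.29, adjusted p = 0.00938, series-adjusted 2.37 and not called). Its groups were apart, but HFD library 1 (1082 CPM) was far above the other 4 of its group. *Fabp5*, a fatty acid carrier, rose from 139 ± 33.9 to 497 ± 54.8 CPM (log2 fold change 1.83, adjusted p = 0.000369). *Tyrobp*, the signalling adaptor that TREM2 needs, rose from 21.2 ± 8.79 to 264 ± 130.2 CPM (log2 fold change 3.64, adjusted p = 0.000634). *Plin2*, a coat protein of lipid droplets, rose from 312 ± 63.6 to 1141 ± 320.5 CPM (log2 fold change 1.87, adjusted p = 0.000730). *Acp5*, a phosphatase shared with bone-resorbing cells, measured 330.1 ± 48.1 CPM on ND and 299 ± 75.6 CPM on HFD (log2 fold change -0.14, adjusted p = 0.569).

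Of the markers of resident macrophages, 6 of 15 members tested rose and 2 fell (median log2 fold change 0.80, series-adjusted median 0.52 with 2 called, and 4 higher and 1 lower without the 3 libraries). The members that rose with the smallest adjusted p were *Folr2* (2.46), *Clec10a* (1.22), *Marco* (1.64) and *Vsig4* (2.83), with log2 fold changes in parentheses. *Cd163*, the scavenger receptor for haemoglobin, fell from 75.2 ± 19.4 to 37.5 ± 14.7 CPM (log2 fold change -1.003, adjusted p = 0.0247), and its series-adjusted value was -2.08 (adjusted p = 0.0467). *Gas6*, the ligand of MERTK, fell from 166 ± 15.3 to 141 ± 14.4 CPM (log2 fold change -0.24, adjusted p = 0.0977, series-adjusted -0.45 and not called). *Lyve1*, a hyaluronan receptor of macrophages along vessels, measured 31.4 ± 8.30 CPM on ND and 30.6 ± 22.3 CPM on HFD (log2 fold change -0.04, adjusted p = 0.961). Its HFD libraries spread from 7.603 to 55.7 CPM around the ND range.

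**Figure D2:**
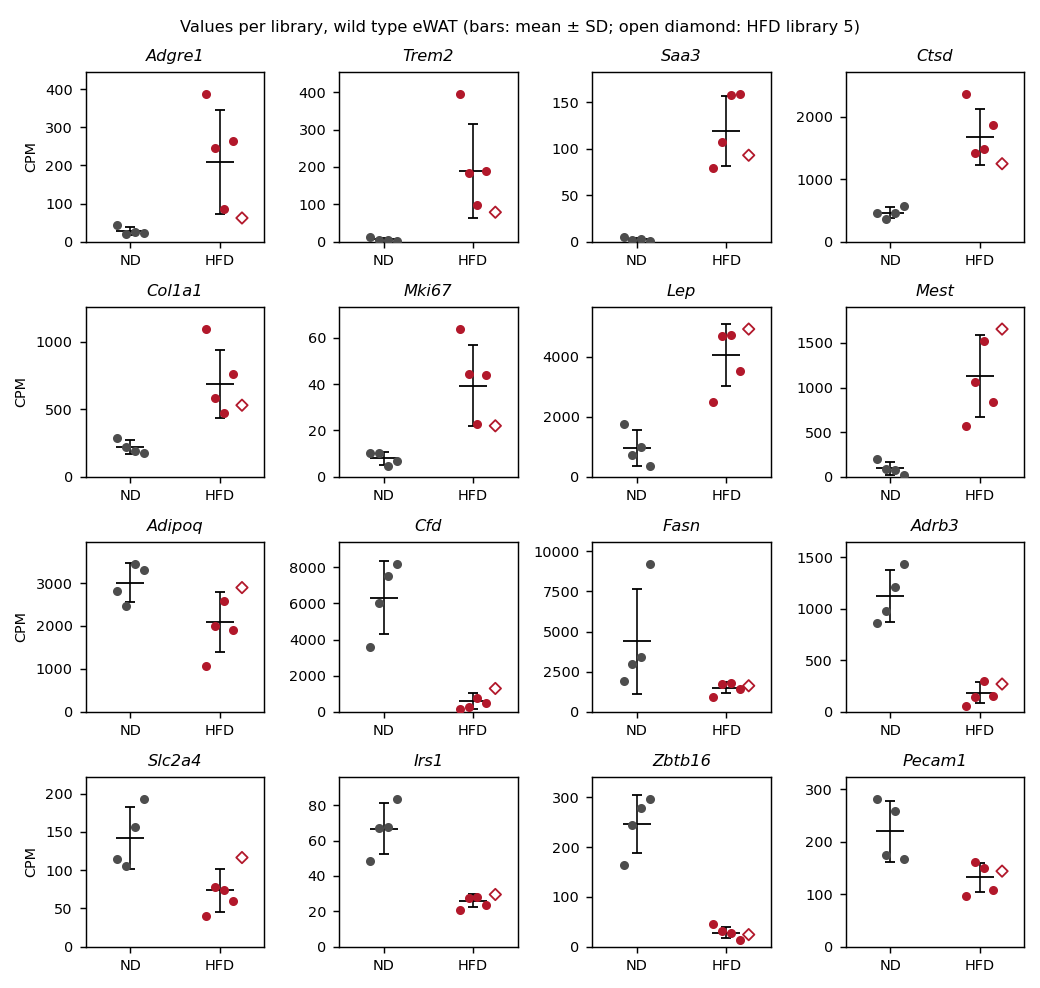
CPM per library of 16 genes, 1 panel each, with the 4 ND libraries in the left and the 5 HFD libraries in the right column of a panel, bars at the mean ± SD, and HFD library 5 as an open diamond. Groups do not overlap for *Adgre1*, *Trem2*, *Saa3*, *Ctsd*, *Col1a1*, *Mki67*, *Lep*, *Mest*, *Cfd*, *Fasn*, *Adrb3*, *Irs1*, *Zbtb16* and *Pecam1*, and do for *Adipoq* and *Slc2a4*.

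Other blood cells were marked by lower counts. Of the monocyte and neutrophil list, 7 of 8 members tested rose (median log2 fold change 1.78, series-adjusted median 1.18 with 1 called, and 5 higher and 1 lower without the 3 libraries), and 6 members, mostly genes of neutrophils, were under 1 CPM. *S100a8*, a calcium-binding alarmin, rose from 2.08 ± 1.13 to 34.8 ± 10.4 CPM (log2 fold change 4.05, adjusted p = 0.000382). However, *S100a9* of the same list averaged 0.370 CPM and was not tested, nor were *Retnlg*, *Cxcr2*, *Ngp*, *Camp* and *Ly6g*. *Ccr2*, the receptor that brings monocytes into tissue, rose from 23.9 ± 9.70 to 65.6 ± 13.3 CPM (log2 fold change 1.46, adjusted p = 0.00350, series-adjusted 1.36 and not called). *Fcgr4* and *Csf3r*, an Fc receptor and the receptor for granulocyte colony-stimulating factor, rose with log2 fold changes of 2.83 and 1.59. Of the mast cell list, 5 of 7 members tested rose (median log2 fold change 3.89, series-adjusted median -0.01 with none called, and 5 higher and 1 lower without the 3 libraries). The mast cell chymase gene *Mcpt4* measured 1.76, 1.69, 0.684 and 1.32 CPM in the ND libraries and 46.9, 40.7, 3.998, 46.6 and 3.04 CPM in the HFD libraries. HFD libraries 3 and 5 stayed close to the ND range while the other 3 were high (log2 fold change 4.36, SE 0.91, adjusted p = 0.00479, series-adjusted 1.149 and not called). The same 2 HFD libraries were the lowest for the tryptase *Tpsb2*, the chymase *Cma1* and the carboxypeptidase *Cpa3*, which with the IgE receptor chain *Fcer1a* were the other members that rose, by log2 fold changes of 3.95, 3.89, 4.003 and 3.14. The series-adjusted values for *Tpsb2*, *Cma1* and *Cpa3* were 0.76, 0.50 and -0.01. Of the eosinophil and type 2 list, 3 of 5 members tested rose (median log2 fold change 0.80, series-adjusted median -0.10 with 1 called), namely the ribonuclease *Ear2* (1.64), the eotaxin receptor *Ccr3* (4.20) and the IL-33 receptor *Il1rl1* (0.80). *Il33* itself measured 5.26 ± 2.19 CPM on ND and 8.29 ± 4.86 CPM on HFD (log2 fold change 0.65, adjusted p = 0.245). A further 8 members of the eosinophil and type 2 list averaged under 1 CPM, among them *Siglecf*, *Epx*, *Prg2*, *Il4*, *Il5* and *Il13*.

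Most defining genes of lymphocytes had few counts. Of the B cell list, 5 of 8 members tested rose (median log2 fold change 0.93, series-adjusted median 0.65 with 1 called), namely *Cd79b* (1.84), *Cd22* (2.67), *Ighm* (0.84), *Jchain* (1.98) and *Bank1* (1.01). The defining B cell gene *Ms4a1* averaged under 1 CPM. Of 7 lymph node genes, 2 were tested and neither was called, and *Ccl21a*, a chemokine of lymphatic vessels, measured 10.2 ± 8.34 CPM on ND and 5.70 ± 5.26 CPM on HFD (log2 fold change -0.85, adjusted p = 0.362). Of the T and NK cell list, 4 of 10 members tested rose (median log2 fold change 0.99, series-adjusted median 0.72 with 1 called), namely *Il7r* (3.19), *Nkg7* (2.12), *Cd8a* (1.82) and *Cd3g* (1.29). The IL-7 receptor gene *Il7r*, which T cells share with other lymphoid and some myeloid cells, rose from 5.96 ± 2.27 to 54.6 ± 33.0 CPM (log2 fold change 3.19, adjusted p = 0.00114), while *Cd3e*, a chain of the T cell receptor complex, measured 1.02 ± 0.312 CPM on ND and 1.65 ± 1.18 CPM on HFD (log2 fold change 0.69, adjusted p = 0.296). Of genes of dendritic cells and of MHC class II, which presents antigen, 12 of 17 members tested rose and 1 fell (median log2 fold change 1.57, series-adjusted median 1.11 with 6 called). *H2-Aa*, the class II alpha chain, rose from 183 ± 36.2 to 668 ± 162 CPM (log2 fold change 1.87, adjusted p = 0.000517). *H2-DMb1*, which loads peptides onto class II, rose from 14.4 ± 4.58 to 103 ± 14.6 CPM (log2 fold change 2.84, adjusted p = 0.000171). The invariant chain *Cd74* and the beta chain *H2-Ab1* rose with log2 fold changes of 1.66 and 1.62. The 1 member that fell, *Zbtb46*, encodes a transcription factor of classical dendritic cells and of endothelium, and fell from 32.4 ± 8.402 to 14.2 ± 2.47 CPM (log2 fold change -1.19, adjusted p = 0.00201, series-adjusted -0.96 and not called).

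Chemokine genes rose with the macrophage genes, and 16 of 22 members tested rose (median log2 fold change 1.51, series-adjusted median 1.26 with 7 called). *Ccl2* (ENSMUSG00000035385, chromosome 11, 82035571 to 82037453), which draws monocytes, measured 6.34, 2.38, 3.35 and 1.14 CPM in the ND libraries and 29.4, 21.8, 25.8, 56.8 and 24.6 CPM in the HFD libraries. HFD library 4 was far above the other HFD libraries, and all 5 were above the ND group (log2 fold change 3.26, SE 0.50, adjusted p = 0.00134). The others with the smallest adjusted p were *Ccl9*, *Ccl7* and *Pf4*, with log2 fold changes of 2.32, 3.10 and 1.75. Of cytokines and their receptors, 13 of 24 members tested rose and 4 fell (median log2 fold change 0.77, series-adjusted median 0.31 with 3 called). *Il1rn*, the antagonist of the IL-1 receptor, measured 3.62, 2.76, 1.72 and 0.418 CPM in the ND libraries and 76.7, 31.6, 24.5, 32.1 and 20.7 CPM in the HFD libraries. Each HFD library was above the ND range, library 1 most (log2 fold change 4.11, SE 0.63, adjusted p = 0.00135). *Tnf* measured 0.573 ± 0.322 CPM on ND and 1.605 ± 1.08 CPM on HFD (log2 fold change 1.48, adjusted p = 0.106), and *Il1b*, *Il6* and *Il10* were under 1 CPM. *Tnfsf12*, which encodes TWEAK, *Tnfrsf1b*, a TNF receptor, and *Il15*, a growth factor of NK cells, rose with log2 fold changes of 1.54, 1.53 and 0.90. The 4 that fell were the CSF1R ligand *Il34* and the receptor chains *Il1r1*, *Il4ra* and *Il6ra*, with log2 fold changes of -0.70, -1.11, -0.42 and -0.70.

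Receptors and enzymes of innate defence followed the same direction. Of the pattern recognition list, 19 of 25 members tested rose (median log2 fold change 1.23, series-adjusted median 0.46 with 3 called). *Tlr2*, a receptor for bacterial lipoproteins, rose from 4.04 ± 0.944 to 14.05 ± 5.54 CPM (log2 fold change 1.80, adjusted p = 0.00341, series-adjusted 0.54 and not called). *Casp1*, the protease that activates IL-1 family cytokines, rose from 12.7 ± 1.44 to 61.8 ± 15.5 CPM (log2 fold change 2.28, adjusted p = 0.000330). *Casp4* (caspase-11, a sensor of lipopolysaccharide), *Cd180* and *Tlr13* rose with log2 fold changes of 1.34, 4.28 and 3.46. Of Fc receptors and the phagocyte oxidase, 13 of 13 members tested rose (median log2 fold change 2.36, series-adjusted median 1.41 with 5 called). *Cybb*, the catalytic subunit of the oxidase that makes superoxide, rose from 28.2 ± 14 to 145 ± 79.8 CPM (log2 fold change 2.36, adjusted p = 0.00339, series-adjusted 1.19 and not called). *Fcer1g*, the shared signalling chain of Fc receptors, rose from 17.4 ± 3.51 to 142 ± 66.8 CPM (log2 fold change 3.03, adjusted p = 0.000526). The GTPase *Rac2* and the oxidase subunit *Cyba* rose with log2 fold changes of 2.46 and 2.67. Interferon-stimulated genes were less uniform, and 11 of 20 members tested rose (median log2 fold change 0.58, series-adjusted median 0.23 with 3 called). *Irf7*, a main regulator of the type I interferon response, measured 20.2 ± 3.04 CPM on ND and 19.1 ± 6.34 CPM on HFD (log2 fold change -0.08, adjusted p = 0.788), while *Ifit3* (1.35), *Oas1a* (2.49), *Cxcl10* (2.58) and *Zbp1* (1.75) rose.

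Complement genes moved in both directions, although the share that fell was under the 28.2% of all genes. Of the complement list, 10 of 18 members tested rose and 3 fell (median log2 fold change 0.65, series-adjusted median 0.24 with 5 called). Complement factor D, or adipsin, is a serine protease secreted mainly by adipocytes, and its gene *Cfd* (ENSMUSG00000061780, chromosome 10, 79890853 to 79892655) measured 3577, 6034, 7532 and 8186 CPM in the ND libraries and 132, 272, 776, 482 and 1292 CPM in the HFD libraries. The highest HFD library, 5, was below the lowest ND library (log2 fold change -3.42, SE 0.60, adjusted p = 0.00223, series-adjusted -2.29 and not called). *C3*, the central complement protein, rose from 456 ± 66.1 to 1087 ± 278 CPM (log2 fold change 1.25, adjusted p = 0.00154). The properdin gene *Cfp*, the C3a receptor *C3ar1* and the C1 inhibitor *Serping1* rose with log2 fold changes of 1.30, 3.51 and 1.52, and the other 2 that fell were *C2* (-1.02) and *C7* (-0.85). Of the acute phase list, 5 of 12 members tested rose and 2 fell (median log2 fold change 1.147, series-adjusted median 0.45 with 5 called). *Saa3* (ENSMUSG00000040026, chromosome 7, 46711998 to 46715700), the serum amyloid A of adipose tissue and macrophages, measured 5.17, 2.07, 3.02 and 1.34 CPM in the ND libraries and 79.1, 107, 158, 159 and 93.2 CPM in the HFD libraries. No ND library came near the HFD libraries (log2 fold change 5.36, SE 0.45, adjusted p = 0.000260). Haptoglobin, which binds free haemoglobin and is made by mouse adipocytes as well as liver, is encoded by *Hp* (ENSMUSG00000031722, chromosome 8, 109575128 to 109579172), which measured 2438, 2701, 3026 and 2037 CPM in the ND libraries and 5944, 7677, 10096, 11534 and 10262 CPM in the HFD libraries. Its groups were apart as well (log2 fold change 1.84, SE 0.23, adjusted p = 0.000774). The others that rose were *Orm2* (2.53), *Lbp* (1.25) and *Orm1* (1.04), and those that fell were ceruloplasmin, *Cp* (-1.28), and *Serpina3b* (-2.02). Most of these proteins are also made by the liver. A list of 20 liver genes, described near the end, summed to between 15.6 and 37.4 RPM on ND and between 133.7 and 973.4 on HFD, and its part in the complement and acute phase changes was not tested.

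Lysosomal genes rose widely. Lysosomes digest engulfed material at acid pH by hydrolases such as cathepsins, the vacuolar proton pump acidifies them, and TFEB, TFE3, MITF and TFEC are related transcription factors that bind the CLEAR element of lysosomal gene promoters, whose core is TCACGTGA. Of hydrolases and membrane proteins, 29 of 40 members tested rose (median log2 fold change 0.86, series-adjusted median 0.47 with 10 called). *Ctsd* (ENSMUSG00000007891, chromosome 7, 142375911 to 142388038), the aspartic protease cathepsin D, measured 466, 360.3, 468 and 572 CPM in the ND libraries and 2362, 1420, 1486, 1865 and 1249 CPM in the HFD libraries. Every HFD library was above the ND group by more than 2-fold (log2 fold change 1.85, SE 0.22, adjusted p = 0.000645). The cysteine proteases *Ctsz* and *Ctsl* rose with log2 fold changes of 1.82 and 1.46. *Ctsb* (cathepsin B) and *Psap* (prosaposin, the precursor of activators of lipid hydrolases) were among the 5 genes with the largest rise in CPM, a difference that also grows with the level of a gene. *Ctsb* rose from 1658 ± 175 to 4387 ± 1162 CPM (log2 fold change 1.40, adjusted p = 0.00123), and *Psap* rose from 1917 ± 212 to 4401 ± 1458 CPM (log2 fold change 1.20, adjusted p = 0.00380, series-adjusted 0.69 and not called). Of the proton pump, 14 of 17 members tested rose (median log2 fold change 0.65, series-adjusted median 0.49 with 6 called), with *Atp6v0a1* (1.17), *Atp6v1f* (1.12), *Atp6v0d1* (0.69) and *Atp6v0d2* (4.21) at the smallest adjusted p. All 4 transcription factors tested rose, namely *Tfeb* (1.12), *Tfe3* (0.52), *Mitf* (0.99) and *Tfec* (1.14), with a series-adjusted median of 0.27. *Tfeb* measured 12.1, 10.96, 10.2 and 7.85 CPM in the ND libraries and 31.4, 25.2, 17.9, 19.04 and 18.1 CPM in the HFD libraries, and its groups were apart (log2 fold change 1.12, SE 0.21, adjusted p = 0.00290, series-adjusted 0.81 and not called).

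The promoters of these genes were read from RefSeq (GRCm38.p6, 250 bases before to 50 after the start site), which held 32 of the 40 hydrolase and membrane genes and 12 of the 17 pump genes. TCACGTGA, which reads the same on both strands, was present in 4 of the 32 (12.5%) and 3 of the 12 (25%), against 304 of all 27025 promoters (1.12%), and in 0 of the 4 transcription factor genes, a description of these windows with no test. Of those 7 genes, *Ctsa*, *Ctsd*, *Gla*, *Atp6v0d1*, *Atp6v0e* and *Atp6v1a* rose and *Mcoln1* was not called. *Ctsa*, a carboxypeptidase that protects other lysosomal enzymes, rose from 124 ± 15.5 to 329.8 ± 133 CPM (log2 fold change 1.42, adjusted p = 0.00291, series-adjusted 0.80 and not called), *Gla*, alpha-galactosidase A, rose from 10.7 ± 1.03 to 32.8 ± 15.7 CPM (log2 fold change 1.61, adjusted p = 0.00288, series-adjusted 0.92 and not called), and *Atp6v1a*, the catalytic pump subunit, rose from 112 ± 13.2 to 213 ± 80.8 CPM (log2 fold change 0.92, adjusted p = 0.0147, series-adjusted 0.27 and not called). To show where the element lies, the 250 bases before the start site follow for 3 of the genes that rose, 5′ to 3′ on the gene's strand with TCACGTGA in capitals. The element begins 99 bases before the start site in *Ctsd* (chr7:142387828-142388077, minus strand), 228 bases before it in *Gla* (chrX:134601006-134601255, minus strand), where a second copy follows, and 132 bases before it in *Atp6v1a* (chr16:44139260-44139509, minus strand).
Ctsd: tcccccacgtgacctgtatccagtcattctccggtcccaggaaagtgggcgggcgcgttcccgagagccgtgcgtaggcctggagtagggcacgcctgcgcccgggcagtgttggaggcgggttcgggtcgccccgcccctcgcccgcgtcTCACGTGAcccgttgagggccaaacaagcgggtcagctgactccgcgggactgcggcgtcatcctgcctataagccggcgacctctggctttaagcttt
Gla: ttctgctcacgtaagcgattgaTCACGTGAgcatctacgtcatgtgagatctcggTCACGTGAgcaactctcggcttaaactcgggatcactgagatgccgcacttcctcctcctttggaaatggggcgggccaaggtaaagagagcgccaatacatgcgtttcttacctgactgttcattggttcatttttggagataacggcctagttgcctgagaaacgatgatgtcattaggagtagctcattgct
Atp6v1a: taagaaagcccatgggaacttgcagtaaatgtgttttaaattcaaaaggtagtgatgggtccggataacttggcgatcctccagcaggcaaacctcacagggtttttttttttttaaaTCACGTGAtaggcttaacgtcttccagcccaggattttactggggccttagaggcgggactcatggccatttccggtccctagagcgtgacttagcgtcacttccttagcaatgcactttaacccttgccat

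Many genes of the fibrous matrix rose, while the share of collagens that fell was under the 28.2% of all genes. Of the collagens, 12 of 25 members tested rose and 5 fell (median log2 fold change 0.23, series-adjusted median 0.07 with 4 called). *Col1a1* (ENSMUSG00000001506, chromosome 11, 94936224 to 94953042), the main chain of fibrillar collagen I, measured 289.9, 217, 194 and 179 CPM in the ND libraries and 1094, 581, 474, 764 and 530.2 CPM in the HFD libraries. The groups were apart, with HFD library 1 highest (log2 fold change 1.65, SE 0.27, adjusted p = 0.00163). The fibrillar *Col3a1* rose from 695 ± 88.0 to 1867 ± 714 CPM (log2 fold change 1.43, adjusted p = 0.00322, series-adjusted 0.82 and not called), and *Col6a3*, whose product yields the secreted peptide endotrophin, rose from 127 ± 28.8 to 298 ± 76.1 CPM (log2 fold change 1.23, adjusted p = 0.00244, series-adjusted 0.61 and not called). *Col6a2*, of the same collagen VI, rose with a log2 fold change of 1.12. The 5 collagen genes that fell were the basement membrane chains *Col4a3*, *Col4a4* and *Col4a5*, a chain of collagen V, *Col5a3*, and a chain of collagen VIII, *Col8a2*, with log2 fold changes of -3.02, -2.48, -0.62, -0.83 and -1.38. *Col4a1*, the common basement membrane chain, measured 1260 ± 139 CPM on ND and 1079 ± 211 CPM on HFD (log2 fold change -0.22, adjusted p = 0.289). *Col4a2* was not called either (log2 fold change -0.27, adjusted p = 0.240).

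Of enzymes that crosslink or cut the matrix, 18 of 30 members tested rose and 7 fell (median log2 fold change 0.81, series-adjusted median 0.41 with 8 called). *Timp1* (ENSMUSG00000001131, chromosome X, 20870166 to 20874735), an inhibitor of metalloproteinases, measured 2.12, 2.34, 0.912 and 0.977 CPM in the ND libraries and 47.3, 16.6, 17.4, 51.3 and 20.1 CPM in the HFD libraries. All HFD libraries were above 16 CPM and all ND libraries below 3 CPM (log2 fold change 4.26, SE 0.52, adjusted p = 0.000676). *Lox*, which crosslinks collagen, rose from 73.3 ± 22.3 to 169.9 ± 26.7 CPM (log2 fold change 1.21, adjusted p = 0.00186). The protease *Mmp19* and the procollagen peptidase *Adamts2* rose with log2 fold changes of 0.86 and 0.86, whereas *Adamts4* (-2.55), *Adamts1* (-0.92), *Mmp9* (-2.57) and *Adamts12* (-0.90) fell. Of glycoproteins and proteoglycans, 14 of 26 members tested rose and 3 fell (median log2 fold change 0.47, series-adjusted median 0.23 with 3 called, and 7 higher and 4 lower without the 3 libraries). Lumican, a proteoglycan that organises collagen fibrils, is encoded by *Lum*, which rose from 50.3 ± 8.62 to 319 ± 145 CPM (log2 fold change 2.67, adjusted p = 0.000978). *Sparc*, a collagen-binding protein of fibroblasts and adipocytes, rose from 3112 ± 772 to 6024 ± 1032 CPM (log2 fold change 0.95, adjusted p = 0.00641). Biglycan, *Bgn*, and the microfibril protein *Mfap5* rose with log2 fold changes of 1.18 and 1.49, and the 3 that fell were elastin, *Eln* (-1.58), *Thbs1* (-1.47) and *Lamb1* (-0.47).

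Of the TGF-beta and activin list, 11 of 36 members tested rose and 5 fell (median log2 fold change -0.01, series-adjusted median 0.09 with 4 called, and 7 higher and 6 lower without the 3 libraries), with the higher share near the 25.9% of all genes and the lower share under the 28.2%. *Inhbb*, the activin B chain that adipocytes secrete, rose from 50.3 ± 14.4 to 84.4 ± 9.04 CPM (log2 fold change 0.75, adjusted p = 0.00814, series-adjusted 0.79 and not called). *Acvr1c*, or ALK7, an adipocyte receptor of activins that restrains lipolysis, fell from 262 ± 47.8 to 92.0 ± 27.2 CPM (log2 fold change -1.51, adjusted p = 0.00128, series-adjusted -1.08 and not called). *Gdf3*, a ligand of that receptor family made by adipose tissue macrophages, measured 0.108, 0.134, 0 and 0 CPM in the ND libraries and 8.99, 6.02, 3.18, 6.44 and 2.68 CPM in the HFD libraries. On ND it had counts in 2 of 4 libraries (log2 fold change 6.37, SE 0.90, adjusted p = 0.00101). *Ltbp2*, *Fstl1* and *Bmp3* rose with log2 fold changes of 0.73, 1.65 and 2.02, and the others that fell were *Acvr1* (-1.01), *Bmp2* (-1.07), *Bmp6* (-1.21) and *Ltbp4* (-0.92). Of adipose progenitor markers, 8 of 16 members tested rose and 2 fell (median log2 fold change 0.44, series-adjusted median 0.22 with 2 called, and 5 higher and 2 lower without the 3 libraries). *Pdgfra*, the receptor that marks these fibroblast-like cells, rose from 35.2 ± 3.82 to 69.2 ± 21.9 CPM (log2 fold change 0.98, adjusted p = 0.00853, series-adjusted 0.19 and not called). The semaphorin *Sema3c* and the surface proteins *Thy1* and *Cd34* rose with log2 fold changes of 0.63, 1.05 and 0.79, and the 2 that fell were the beige-lineage factor *Ebf2* (-1.01) and *Cd24a* (-1.93).

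Vessel genes fell. Of the endothelial and angiogenesis list, 2 of 24 members tested rose and 16 fell (median log2 fold change -0.72, series-adjusted median -0.63 with 2 called in each direction, and 1 higher and 14 lower without the 3 libraries). *Pecam1* (ENSMUSG00000020717, chromosome 11, 106654217 to 106750628), the junction protein CD31, measured 282, 175, 258 and 167 CPM in the ND libraries and 96.3, 162, 149.7, 109 and 144 CPM in the HFD libraries. The groups were apart by a narrow margin, with ND library 4 at 167 and HFD library 2 at 162 CPM (log2 fold change -0.74, SE 0.21, adjusted p = 0.0179, series-adjusted -0.61 and not called). *Vegfa* (ENSMUSG00000023951, chromosome 17, 46016993 to 46032369), the endothelial growth factor that adipocytes secrete, measured 222, 242, 399.8 and 356 CPM in the ND libraries and 74.6, 118, 112, 53.2 and 162 CPM in the HFD libraries. The highest HFD library was library 5 (log2 fold change -1.55, SE 0.31, adjusted p = 0.00395, series-adjusted -0.91 and not called). The guidance receptor *Robo4*, the arterial factor *Sox17* and the vessel-stabilising ligand *Angpt1* fell with log2 fold changes of -1.60, -1.59 and -1.50. The 2 that rose were the apelin receptor *Aplnr*, which rose from 12.6 ± 5.39 to 45.2 ± 15.8 CPM (log2 fold change 1.85, adjusted p = 0.00268), and the lymphatic growth factor *Vegfc*, which rose from 4.89 ± 1.89 to 10.4 ± 3.10 CPM (log2 fold change 1.08, adjusted p = 0.0190). Of mural and smooth muscle cells, 1 of 9 members tested rose and 5 fell (median log2 fold change -1.45, series-adjusted median -1.35 with 3 called). *Myh11*, the smooth muscle myosin, measured 152, 124, 119.6 and 94.5 CPM in the ND libraries and 22.2, 29.5, 27.6, 13.6 and 30.6 CPM in the HFD libraries. Its HFD libraries were all far below the lowest ND library (log2 fold change -2.31, SE 0.23, adjusted p = 0.000429). The contractile genes *Tagln* and *Cnn1*, the pericyte gene *Rgs5* and the receptor *Notch3* also fell, with log2 fold changes of -1.45, -4.21, -1.54 and -1.68, while the proteoglycan *Cspg4* rose (0.89). *Acta2*, smooth muscle actin, measured 178 ± 74.1 CPM on ND and 146 ± 31.9 CPM on HFD (log2 fold change -0.29, adjusted p = 0.409).

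Red blood cell genes fell, as did many vessel genes. Of the red blood cell list, 5 of 5 members tested fell (median log2 fold change -1.43, series-adjusted median -1.22 with none called), with log2 fold changes of *Hbb-bs* (-1.26), *Hbb-bt* (-1.64), *Hba-a1* (-1.32), *Hba-a2* (-1.43) and *Alas2* (-1.97), although the pairs of globin genes are near-identical copies whose reads may be split. Their sum was 909.8, 884, 1985 and 2035 CPM in the ND libraries and 280.1, 515, 794, 639 and 614 CPM in the HFD libraries. The groups of the sum were apart, and how far blood left in the tissue moved other genes was not tested. Of mesothelial genes, of the cells that cover the pad, 6 of 12 members tested fell (median log2 fold change -0.71, series-adjusted median -0.68 with none called). *Upk3b*, a uroplakin, *Lrrn4* and *Gpm6a* fell with log2 fold changes of -0.95, -0.80 and -0.70, and the keratins *Krt8*, *Krt19* and *Krt18*, which epididymal epithelium shares, with -3.75, -1.53 and -2.997. *Krt8* measured 31.7, 108, 2.76 and 29.1 CPM in the ND libraries and 1.19, 1.82, 1.91, 7.89 and 3.12 CPM in the HFD libraries, highest in ND library 2, which also had the highest sum of epididymal genes. *Msln*, which encodes mesothelin, measured 18.95 ± 7.76 CPM on ND and 12.97 ± 7.02 CPM on HFD (log2 fold change -0.55, adjusted p = 0.252).

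**Figure D3:**
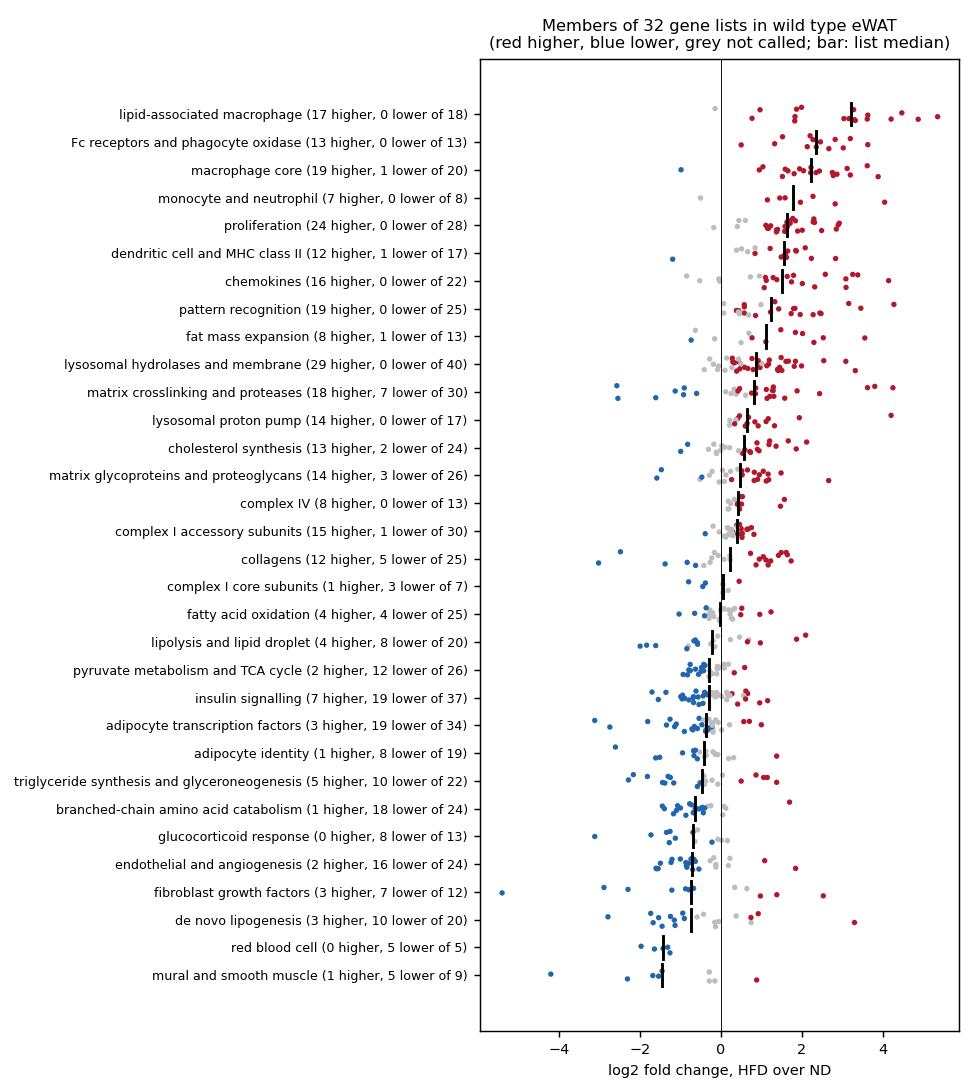
Log2 fold changes on HFD of the genes of 32 lists, 1 horizontal strip per list and 1 dot per gene tested, red where higher, blue where lower and grey where not called, with a bar at the list's median. The genes of the macrophage and proliferation lists lie mostly right of 0, and endothelial, mural, branched-chain amino acid and glucocorticoid response genes mostly left of it.

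Genes of adipocyte identity fell in part. Of the identity list, 1 of 19 members tested rose and 8 fell (median log2 fold change -0.41, series-adjusted median -0.12 with 2 called). *Adipoq*, adiponectin, measured 2821, 2454, 3442 and 3300 CPM in the ND libraries and 1077, 2010, 2577, 1900 and 2894 CPM in the HFD libraries. The groups overlapped, with HFD library 1 lowest and libraries 3 and 5 within the ND range (log2 fold change -0.52, SE 0.26, adjusted p = 0.127). *Pparg*, the master regulator of adipocytes, measured 174 ± 42.7 CPM on ND and 135 ± 31.0 CPM on HFD (log2 fold change -0.37, adjusted p = 0.171). *Plin1*, the main droplet coat of adipocytes, fell from 2127 ± 314 to 1343 ± 368 CPM (log2 fold change -0.66, adjusted p = 0.0345, series-adjusted -0.25 and not called). *Adrb3* (ENSMUSG00000031489, chromosome 8, 27225776 to 27250616), the beta-3 adrenergic receptor through which catecholamines start lipolysis in mouse fat, measured 863, 978, 1210 and 1433 CPM in the ND libraries and 53.3, 145, 299, 152 and 269 CPM in the HFD libraries. All HFD libraries were far below the ND group, library 1 most (log2 fold change -2.61, SE 0.43, adjusted p = 0.00168, series-adjusted -2.06 and not called). *Slc2a4* (ENSMUSG00000018566, chromosome 11, 69942539 to 69948188), the insulin-regulated glucose transporter GLUT4, measured 114, 106, 156 and 193 CPM in the ND libraries and 39.9, 77.9, 74.1, 60.4 and 116 CPM in the HFD libraries. HFD library 5 reached the ND range (log2 fold change -0.95, SE 0.29, adjusted p = 0.0242), and the series-adjusted value was -0.29 (adjusted p = 0.670). *Pnpla3*, a lipase of lipid droplets, fell from 229.7 ± 64.0 to 75.1 ± 19.2 CPM (log2 fold change -1.61, adjusted p = 0.00115). The 1 member that rose was *Agpat2*, an enzyme of triglyceride synthesis, which rose from 222 ± 73.0 to 578 ± 192 CPM (log2 fold change 1.38, adjusted p = 0.00570).

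Adipocyte hormones changed in both directions, as 9 of 26 members tested rose and 4 fell (median log2 fold change 0.33, series-adjusted median 0.41). The share that fell was under the 28.2% of all genes. *Lep* (ENSMUSG00000059201, chromosome 6, 29060220 to 29073877), the satiety hormone leptin, measured 1767, 709, 986 and 356 CPM in the ND libraries and 2495, 4684, 4708, 3521 and 4913 CPM in the HFD libraries. ND library 1 came closest to the HFD group (log2 fold change 2.09, SE 0.43, adjusted p = 0.00425). *Retn*, resistin, which adipocytes secrete in mice, fell from 1711 ± 456 to 733 ± 428 CPM (log2 fold change -1.22, adjusted p = 0.0426, series-adjusted -0.36 and not called), a call lost without ND library 4 (adjusted p = 0.102). *Metrnl*, *C1qtnf6* and the growth factor *Igf1* rose with log2 fold changes of 2.67, 1.44 and 1.06. The others that fell were the NAD-producing enzyme and cytokine *Nampt* (-0.89), apelin, *Apln* (-1.06), and *Vegfa*. Of genes known to follow fat mass, 8 of 13 members tested rose and 1 fell (median log2 fold change 1.11, series-adjusted median 1.49 with 5 called). *Mest* (ENSMUSG00000051855, chromosome 6, 30723547 to 30748465), an imprinted gene that tracks the expansion of adipocytes, measured 194, 92.6, 77.3 and 18.0 CPM in the ND libraries and 566, 1061, 1523, 841 and 1656 CPM in the HFD libraries. The lowest HFD library, 1, was well above the highest ND library, also 1 (log2 fold change 3.56, SE 0.63, adjusted p = 0.00234). *Npr3*, the clearance receptor of natriuretic peptides, rose from 732 ± 313 to 1248 ± 304 CPM (log2 fold change 0.77, adjusted p = 0.0541, series-adjusted 1.05 and not called), although ND library 1 lay within the HFD range and the call was lost without HFD library 3 or 5 or ND library 2, 3 or 4 (adjusted p up to 0.133). *Fgf13*, an intracellular member of its family, rose from 18.6 ± 10.7 to 108 ± 18.9 CPM (log2 fold change 2.53, adjusted p = 0.00100). The lipoprotein receptor *Vldlr* and *Trp53inp2* rose with log2 fold changes of 1.11 and 1.48, and the caveolar coat gene *Cavin2* fell (-0.73). Of caveolae and the cytoskeleton, 10 of 20 members tested rose and 3 fell (median log2 fold change 0.54, series-adjusted median 0.67 with 8 called). Nuclear lamin A, *Lmna*, the actin-binding thymosins *Tmsb10* and *Tmsb4x* and the tubulin *Tubb6* rose with log2 fold changes of 1.45, 1.79, 1.81 and 2.04, and the others that fell were *Pacsin3* (-1.92) and the myosin *Myh9* (-0.57).

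Genes for several steps of fatty acid synthesis from sugar fell. Of the de novo lipogenesis list, 3 of 20 members tested rose and 10 fell (median log2 fold change -0.75, series-adjusted median -0.37 with 3 called). *Fasn* (ENSMUSG00000025153, chromosome 11, 120805846 to 120824547), fatty acid synthase, measured 1892, 2999, 3440 and 9209 CPM in the ND libraries and 909.7, 1743, 1820, 1448 and 1623 CPM in the HFD libraries. The groups were apart, narrowly between ND library 1 and HFD library 3, and ND library 4 was highest (log2 fold change -1.54, SE 0.42, adjusted p = 0.0154, series-adjusted -1.43 and not called). *Acly*, which supplies cytosolic acetyl-CoA, fell from 608 ± 239 to 256 ± 58.1 CPM (log2 fold change -1.25, adjusted p = 0.00516, series-adjusted -1.37 and not called). The carboxylases *Acaca* and *Acacb*, which make malonyl-CoA, fell with log2 fold changes of -1.74 and -1.68, as did the desaturase *Fads1* (-1.45) and *Aacs* (-1.13). *Elovl6*, the elongase of palmitate, fell from 53.7 ± 26.2 to 27.9 ± 8.86 CPM (log2 fold change -0.94, adjusted p = 0.0417, series-adjusted -1.004 and not called), a call lost without ND library 4 (adjusted p = 0.141). *Mlxipl*, the glucose-sensing factor ChREBP, fell from 74.0 ± 13.2 to 39.6 ± 10.1 CPM (log2 fold change -0.90, adjusted p = 0.00668, series-adjusted -0.54 and not called). *Scd1*, the main desaturase, measured 29503 ± 8014 CPM on ND and 19624 ± 6630 CPM on HFD (log2 fold change -0.59, adjusted p = 0.153). *Srebf1*, the insulin-responsive factor SREBP-1, measured 174 ± 38.4 CPM on ND and 129 ± 30.5 CPM on HFD (log2 fold change -0.43, adjusted p = 0.130). The 3 that rose were *Acaa1b* (0.92), *Elovl3* (3.31) and *Fads3* (0.74), although *Acaa1b* encodes a thiolase of fatty acid oxidation rather than of synthesis.

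Enzymes that build triglyceride were split by isoform, and 5 of 22 members tested rose and 10 fell (median log2 fold change -0.46, series-adjusted median -0.64 with 7 called, and 3 higher and 8 lower without the 3 libraries). *Pck1* (ENSMUSG00000027513, chromosome 2, 173153048 to 173159273), which makes the glycerol backbone from pyruvate, measured 1979, 1647, 2781 and 3276 CPM in the ND libraries and 294, 680.0, 595, 278 and 852 CPM in the HFD libraries. All HFD libraries were well below the ND group (log2 fold change -2.16, SE 0.36, adjusted p = 0.00193, series-adjusted -1.51 and not called). The acyltransferase *Gpat4*, the kinase *Pdk2*, which inhibits pyruvate dehydrogenase, and the mitochondrial dehydrogenase *Gpd2* fell with log2 fold changes of -1.44, -1.38 and -1.82. *Dgat2*, the last step of triglyceride synthesis, rose from 1278 ± 125 to 2335 ± 809.7 CPM (log2 fold change 0.87, adjusted p = 0.0309, series-adjusted 1.19 and not called). The others that rose were *Agpat2*, the cytosolic dehydrogenase *Gpd1* (1.06), *Lpin2* (0.50) and *Mogat2* (1.148). Of lipolysis and the droplet surface, 4 of 20 members tested rose and 8 fell (median log2 fold change -0.22, series-adjusted median -0.14 with 4 called). *Pnpla2*, the first lipase of triglyceride breakdown, fell from 2233 ± 453 to 1492 ± 365 CPM (log2 fold change -0.58, adjusted p = 0.0522, series-adjusted -0.29 and not called), a call lost without ND library 3 or 4 (adjusted p up to 0.147). The carboxylesterases *Ces1d* and *Ces1f* and the droplet-budding protein *Fitm2* fell with log2 fold changes of -1.84, -1.997 and -0.84. The 4 that rose were *Plin2*, the lipase inhibitor *Hilpda* (2.10), *Plin3* (0.66) and *Plin5* (0.98). Of uptake and activation of fatty acids, 5 of 21 members tested rose and 5 fell (median log2 fold change 0.11, series-adjusted median -0.12 with 6 called). The 5 that rose were *Fabp5* (1.83), *Vldlr* (1.11), *Acsl5* (0.54), *Angptl8* (1.85) and *Acsl3* (0.39), and the 5 that fell *Acss3* (-1.78), *Acsm3* (-4.56), *Acsm5* (-2.26), *Slc27a1* (-1.10) and *Gpihbp1* (-0.86). *Fabp4*, the carrier that fills adipocytes, measured 17769 ± 3347 CPM on ND and 20334 ± 5936 CPM on HFD (log2 fold change 0.19, adjusted p = 0.563).

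Genes of fatty acid oxidation changed little as a list, as 4 of 25 members tested rose and 4 fell (median log2 fold change -0.01, series-adjusted median 0.07 with 2 called, and 2 higher and 1 lower without the 3 libraries). *Cpt1a*, which admits long-chain fatty acids to mitochondria, rose from 68.2 ± 13.1 to 133 ± 14.6 CPM (log2 fold change 0.96, adjusted p = 0.00117). The other 3 that rose were *Etfb* (1.24), *Acaa2* (0.52) and *Acadl* (0.49), and the 4 that fell were *Acad10* (-1.03), *Echs1* (-0.65), *Acad11* (-0.40) and *Pex11a* (-0.36). Of pyruvate metabolism and the TCA cycle, 2 of 26 members tested rose and 12 fell (median log2 fold change -0.28, series-adjusted median -0.26 with 1 called, and 0 higher and 7 lower without the 3 libraries). *Pcx*, pyruvate carboxylase, fell from 1064 ± 407 to 557 ± 137 CPM (log2 fold change -0.93, adjusted p = 0.0196, series-adjusted -0.93 and not called). The subunits *Suclg2* of succinyl-CoA ligase, *Sdha* of succinate dehydrogenase and *Dlst* of 2-oxoglutarate dehydrogenase fell with log2 fold changes of -0.76, -0.83 and -0.55, while the carrier *Mpc2* (0.59) and *Idh3a* (0.33) rose. The respiratory chain went the other way in its small subunits. Of complex I accessory subunits, 15 of 30 members tested rose and 1 fell (median log2 fold change 0.39, series-adjusted median 0.50 with 3 called, and 4 higher and 0 lower without the 3 libraries), with *Ndufa11* (0.82), *Ndufb4* (0.76), *Ndufa8* (0.52) and *Ndufb1-ps* (0.52) at the smallest adjusted p and *Ndufb8* (-0.39) as the 1 that fell. Of its core subunits, 1 of 7 members tested rose and 3 fell (median log2 fold change 0.05, series-adjusted median 0.04 with none called, and 0 higher and 1 lower without the 3 libraries), with *Ndufs8* (0.45) upward and *Ndufs1* (-0.80) and *Ndufv1* (-0.45) among those downward.

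In complex III, 4 of 10 members tested rose and 1 fell (median log2 fold change 0.29, series-adjusted median 0.35 with none called, and 0 higher and 1 lower without the 3 libraries). The small subunits *Uqcr10*, *Uqcrq*, *Uqcr11* and *Uqcrh* rose with log2 fold changes of 0.59, 0.61, 0.62 and 0.40, and the large *Uqcrc2* fell (-0.55). In complex IV, 8 of 13 members tested rose (median log2 fold change 0.43, series-adjusted median 0.54 with 1 called, and 3 higher and 0 lower without the 3 libraries), led by *Cox7a1* (1.57), *Cox8b* (1.48), *Cox7a2l* (0.53) and *Cox7b* (0.47), of which the first pair are isoforms of muscle and brown fat. In ATP synthase, 6 of 15 members tested rose and 1 fell (median log2 fold change 0.31, series-adjusted median 0.37 with none called, and 2 higher and 0 lower without the 3 libraries), with *Atp5e* (0.93), *Atp5g1* (0.60), *Atp5j2* (0.58) and *Atp5o* (0.62) upward and the catalytic *Atp5b* (-0.42) downward. Of the subunits encoded in mitochondria, 2 of 13 members tested fell (median log2 fold change -0.24, series-adjusted median 0.09 with none called, and 0 higher and 0 lower without the 3 libraries), namely *mt-Nd5* (-0.77) and *mt-Nd4l* (-0.76). Some mitochondrial genes have nuclear copies, so that low counts of *mt-Co2*, *mt-Co3* and *mt-Atp6* are uncertain. Length moved with these results. The respiratory lists have short transcripts by the authors' cDNA lengths, with medians of 1234 bases for complex I accessory subunits and 1131 for complex IV, against 2178 for the core subunits and 3895 for the TCA cycle list. Over all protein-coding genes in 5 equal bins of length, 42.7% of the shortest bin and 17.1% of the longest were higher on HFD, and 14.5% and 37.1% were lower, with median log2 fold changes from 0.30 to -0.18. The same was found within series 2, with 0.31 and -0.24, and the part of length in the respiratory changes was not tested.

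**Figure D4:**
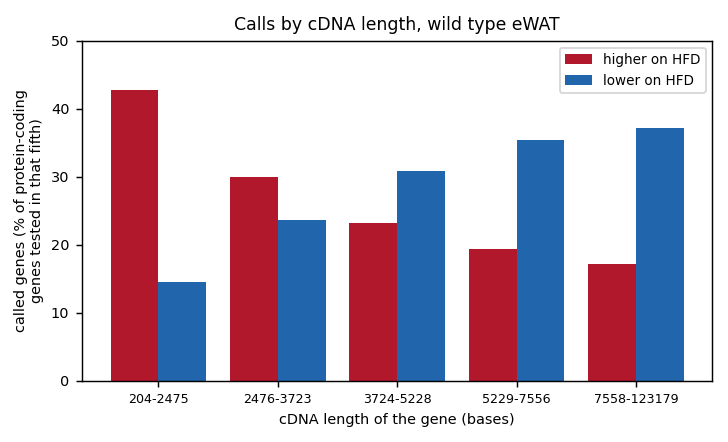
Percent of protein-coding genes called higher (red) and lower (blue) on HFD in 5 equal bins of cDNA length, from 204 to 2475 bases in the first to 7558 to 123179 bases in the last. The share called higher falls from 42.7% to 17.1% and the share called lower rises from 14.5% to 37.1%.

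Of thermogenesis and mitochondrial biogenesis, 11 of 21 members tested rose and 3 fell (median log2 fold change 0.54, series-adjusted median 0.31 with 4 called). *Ucp1*, the uncoupling protein of brown fat, averaged under 1 CPM, with at most 0.137 RPM on ND and 1.73 on HFD. *Ppargc1a*, the coactivator PGC-1alpha, fell from 5.92 ± 1.16 to 3.78 ± 0.962 CPM (log2 fold change -0.65, adjusted p = 0.0583, series-adjusted -0.31 and not called), a call lost without HFD library 3 or 4 or ND library 4 (adjusted p up to 0.161). *Ebf2* and *Tfb2m* (-0.48) fell too. *Otop1*, a proton channel, measured 2.21, 0.192, 0.532 and 1.36 CPM in the ND libraries and 13.8, 20.4, 18.1, 24.6 and 15.8 CPM in the HFD libraries. The groups were apart by more than 6-fold (log2 fold change 4.10, SE 0.61, adjusted p = 0.00121). The potassium channel *Kcnk3* and the nuclear receptor *Esrra* rose with log2 fold changes of 1.47 and 0.53. Of genes that break down branched-chain amino acids, as mature adipocytes do, 1 of 24 members tested rose and 18 fell (median log2 fold change -0.63, series-adjusted median -0.41 with 4 called). *Aldh6a1* (ENSMUSG00000021238, chromosome 12, 84430717 to 84451004), of the valine branch, measured 623, 845, 784 and 936 CPM in the ND libraries and 208, 315, 355, 268 and 367 CPM in the HFD libraries. The highest HFD library, 5, was well below the lowest ND library, 1 (log2 fold change -1.40, SE 0.19, adjusted p = 0.000913). *Bcat2*, the first step in adipocytes, fell from 212 ± 71.0 to 124 ± 24.2 CPM (log2 fold change -0.77, adjusted p = 0.0207, series-adjusted -0.47 and not called). The dehydrogenases *Ivd* and *Acadsb* and *Ppm1k*, the phosphatase that activates the branched-chain complex, fell with log2 fold changes of -1.45, -1.17 and -1.07, while *Bcat1*, the isoform of macrophages and growing cells, rose from 6.92 ± 2.50 to 22.5 ± 4.95 CPM (log2 fold change 1.70, adjusted p = 0.00174, series-adjusted 1.07 and not called). Of glycolysis and the pentose phosphate pathway, 7 of 29 members tested rose and 6 fell (median log2 fold change 0.16, series-adjusted median 0.17 with 1 called, and 3 higher and 5 lower without the 3 libraries). *Hk3*, the hexokinase of myeloid cells, rose from 4.69 ± 2.93 to 43.1 ± 28.1 CPM (log2 fold change 3.20, adjusted p = 0.00218, series-adjusted 2.21 and not called), while *Hk2*, the hexokinase of adipocytes and muscle, measured 119.7 ± 23.7 CPM on ND and 95.4 ± 29.2 CPM on HFD (log2 fold change -0.33, adjusted p = 0.264). *Tpi1*, *Pgls* and *Pfkp* rose with log2 fold changes of 0.91, 0.64 and 0.44, and *Eno3* (-0.97), *Pfkm* (-0.81), *Ldhb* (-1.003) and *Tkt* (-1.22) fell.

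Insulin signalling genes were mostly lower. Of the insulin list, 7 of 37 members tested rose and 19 fell (median log2 fold change -0.30, series-adjusted median -0.34 with 6 called, and 2 higher and 13 lower without the 3 libraries). *Irs1* (ENSMUSG00000055980, chromosome 1, 82233101 to 82291416), the substrate that docks on the insulin receptor, measured 48.5, 67.1, 67.9 and 83.4 CPM in the ND libraries and 20.6, 27.8, 28.3, 23.8 and 29.5 CPM in the HFD libraries. The HFD libraries were close together and all below the ND range (log2 fold change -1.36, SE 0.16, adjusted p = 0.000658). *Insr*, the receptor itself, fell from 173 ± 19.9 to 92.8 ± 17.4 CPM (log2 fold change -0.90, adjusted p = 0.00193, series-adjusted -0.62 and not called). *Pde3b*, the phosphodiesterase by which insulin stops lipolysis, fell from 648 ± 134 to 222 ± 29.5 CPM (log2 fold change -1.55, adjusted p = 0.000430), and the kinase *Pdpk1* fell with a log2 fold change of -0.68. *Akt2*, the kinase downstream, measured 232 ± 8.38 CPM on ND and 257 ± 53.6 CPM on HFD (log2 fold change 0.15, adjusted p = 0.487). Those that rose with the smallest adjusted p were the glycogen regulator *Ppp1r3b* (0.96), the receptor inhibitor *Grb14* (0.66), the pseudokinase *Trib3* (0.61) and *Pik3ca* (0.28). The insulin list has long transcripts by the authors' cDNA lengths, with a median of 7193 bases. Of all protein-coding genes in the bin of 5229 to 7556 bases, 35.4% were lower and 19.4% higher on HFD. The part of length in the insulin changes was not tested. Of adrenergic, natriuretic and antilipolytic receptors and their messengers, 8 of 32 members tested rose and 12 fell (median log2 fold change -0.26, series-adjusted median -0.25 with 6 called, and 4 higher and 10 lower without the 3 libraries). *Hcar1*, the lactate receptor that restrains lipolysis, fell from 156 ± 64.0 to 60.8 ± 19.4 CPM (log2 fold change -1.36, adjusted p = 0.00628, series-adjusted -1.19 and not called). *Npr2* and the adenylate cyclase *Adcy6* fell with log2 fold changes of -1.25 and -1.12 beside *Adrb3* and *Pde3b*. The prostaglandin receptor *Ptger3* and adenosine receptor *Adora1*, both antilipolytic, rose with log2 fold changes of 1.69 and 1.09, as did *Prkar2a* (0.54) and *Adra1a* (0.57). *Prkar2b*, the main regulatory subunit of protein kinase A in fat, measured 749.8 ± 119 CPM on ND and 770.0 ± 135 CPM on HFD (log2 fold change 0.04, adjusted p = 0.868).

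Transcription factors of adipocytes were largely lower, as 3 of 34 members tested rose and 19 fell (median log2 fold change -0.37, series-adjusted median -0.24 with 5 called, and 0 higher and 11 lower without the 3 libraries). *Zbtb16* (ENSMUSG00000066687, chromosome 9, 48654297 to 48836222), the glucocorticoid-induced factor PLZF, measured 165, 244, 279.6 and 297 CPM in the ND libraries and 45, 31.7, 27.0, 13.4 and 24.4 CPM in the HFD libraries. All HFD libraries were far below the lowest ND library (log2 fold change -3.12, SE 0.32, adjusted p = 0.000429). *Klf15*, which acts with the glucocorticoid receptor on amino acid and lipid genes, fell from 87.4 ± 33.6 to 24.9 ± 4.79 CPM (log2 fold change -1.81, adjusted p = 0.00105, series-adjusted -1.56 and not called). The thyroid hormone receptor *Thra* and *Gata2* fell with log2 fold changes of -1.14 and -1.34, and the 3 that rose were *Nfib* (0.71), *Zfp467* (0.57) and *Cebpb* (1.002). Of salt-inducible kinases and CREB coactivators, which relay hormone signals to histone deacetylases, 2 of 16 members tested rose and 7 fell (median log2 fold change -0.26, series-adjusted median -0.15 with 5 called). *Sik2*, the adipocyte member, fell from 252 ± 52.2 to 65.5 ± 16.4 CPM (log2 fold change -1.94, adjusted p = 0.000476), *Sik3* fell with a log2 fold change of -1.28, and so did *Prkaa1* (-0.69) and *Hdac7* (-0.90), while *Hdac9* (2.04) and *Camkk2* (0.75) rose. Of the glucocorticoid response list, 8 of 13 members tested fell (median log2 fold change -0.69, series-adjusted median -1.07 with 3 called, and 0 higher and 5 lower without the 3 libraries). *Sgk1*, a kinase, *Fkbp5*, a receptor chaperone, and *Hsd11b1*, which regenerates active glucocorticoid, fell with log2 fold changes of -1.28, -1.73 and -1.13 beside *Zbtb16*.

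Of clock genes, 1 of 19 members tested rose and 5 fell (median log2 fold change -0.23, series-adjusted median -0.46 with none called, and 0 higher and 3 lower without the 3 libraries), with the lower share near the 28.2% of all genes. *Nr1d1*, the repressor REV-ERB alpha, fell from 227 ± 92.0 to 83.2 ± 35.1 CPM (log2 fold change -1.45, adjusted p = 0.00845, series-adjusted -0.71 and not called), with overlapping groups. Others that fell were *Cry2* (-0.69), *Per1* (-1.34) and *Npas2* (-1.70), and the 1 that rose was *Bhlhe41* (0.70). *Arntl*, which encodes BMAL1, measured 11.9 ± 5.12 CPM on ND and 6.15 ± 6.06 CPM on HFD (log2 fold change -0.96, adjusted p = 0.220), and its output *Dbp* measured 44.2 ± 26.5 CPM on ND and 80.7 ± 35.7 CPM on HFD (log2 fold change 0.87, adjusted p = 0.183). The time of tissue collection is not given in the sources used here. Of immediate early genes, 6 of 13 members tested rose and 2 fell (median log2 fold change 0.57, series-adjusted median 0.65 with 2 called), with *Atf3* (3.94), *Fos* (2.44), *Junb* (1.32) and *Egr1* (1.10) upward and *Klf2* (-1.06) and *Jun* (-0.66) downward. *Atf3*, a stress-induced repressor, measured 9.98, 5.57, 4.87 and 5.48 CPM in the ND libraries and 212, 90.9, 57.1, 89.7 and 46.7 CPM in the HFD libraries. Its groups were apart, with HFD library 1 highest (log2 fold change 3.94, SE 0.49, adjusted p = 0.000730). Of retinoid metabolism, 6 of 16 members tested rose and 6 fell (median log2 fold change -0.05, series-adjusted median -0.09 with 3 called, and 3 higher and 6 lower without the 3 libraries). *Retsat*, a retinol saturase of adipocytes, fell from 151 ± 34.7 to 98.8 ± 20.4 CPM (log2 fold change -0.62, adjusted p = 0.0271, series-adjusted -0.38 and not called). The enzymes *Dhrs3* and *Aldh1a3* and the receptor *Rara* rose with log2 fold changes of 0.87, 0.85 and 0.50, and *Cyp26b1* (-2.02), *Aldh1a1* (-1.18), *Rarg* (-0.57) and *Bco2* (-1.28) fell.

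Cholesterol synthesis genes rose while fatty acid synthesis genes fell. Of the cholesterol list, 13 of 24 members tested rose and 2 fell (median log2 fold change 0.56, series-adjusted median 0.63 with 8 called, and 10 higher and 1 lower without the 3 libraries). *Hmgcs1* (ENSMUSG00000093930, chromosome 13, 119690379 to 119708260), the enzyme that makes HMG-CoA, measured 194, 172, 114 and 88.8 CPM in the ND libraries and 260.2, 405, 528, 538 and 528 CPM in the HFD libraries. The groups were apart, with HFD library 1 lowest (log2 fold change 1.67, SE 0.29, adjusted p = 0.00210). *Insig1*, which holds SREBP in the endoplasmic reticulum and is itself its target, rose from 110.1 ± 18.4 to 479.5 ± 122 CPM (log2 fold change 2.12, adjusted p = 0.000429). The late enzymes *Dhcr7*, *Msmo1* and *Sc5d* rose with log2 fold changes of 1.86, 0.94 and 1.19. The 2 that fell were *Insig2* (-0.99) and *Idi1* (-0.82). TCACNCCAC, part of the sterol response element that SREBP binds, searched on both strands, was in 1 of 17 cholesterol promoters (5.88%) and 1 of 17 de novo lipogenesis promoters held by RefSeq, against 388 of 27025 in all (1.44%). These were *Hmgcs1* and *Mlxipl*, one higher and one lower on HFD, so their 250 bases before the start site are set side by side with the match in capitals, for *Hmgcs1* at chr13:119690101-119690350, plus strand, and for *Mlxipl* at chr5:135106641-135106890, plus strand.
Hmgcs1: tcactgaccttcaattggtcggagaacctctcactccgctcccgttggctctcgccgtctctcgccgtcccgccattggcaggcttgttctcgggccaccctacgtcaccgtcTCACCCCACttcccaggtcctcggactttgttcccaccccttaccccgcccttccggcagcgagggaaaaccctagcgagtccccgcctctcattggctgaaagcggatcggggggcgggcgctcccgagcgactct
Mlxipl: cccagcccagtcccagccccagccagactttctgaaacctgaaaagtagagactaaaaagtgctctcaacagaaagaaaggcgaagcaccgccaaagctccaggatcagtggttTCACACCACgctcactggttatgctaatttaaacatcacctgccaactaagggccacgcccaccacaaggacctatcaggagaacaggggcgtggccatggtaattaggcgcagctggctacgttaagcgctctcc

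Of cholesterol efflux and storage, 7 of 13 members tested rose (median log2 fold change 0.61, series-adjusted median 0.28 with 2 called). The phospholipid transfer protein *Pltp*, the scavenger receptor *Msr1*, the cholesteryl ester hydrolase *Nceh1* and the esterifying enzyme *Soat1*, the last 3 of macrophages, rose with log2 fold changes of 2.44, 2.72, 3.04 and 2.15. Of endoplasmic reticulum stress genes, 8 of 25 members tested rose and 3 fell (median log2 fold change 0.11, series-adjusted median -0.11 with 3 called, and 5 higher and 1 lower without the 3 libraries). *Hspa5*, the chaperone BiP, measured 652 ± 261 CPM on ND and 690.4 ± 286 CPM on HFD (log2 fold change 0.08, adjusted p = 0.842). *Ddit3*, the factor CHOP, rose from 8.80 ± 1.149 to 26.8 ± 6.21 CPM (log2 fold change 1.61, adjusted p = 0.000621), and *Edem1* and *Sdf2l1* rose with log2 fold changes of 0.44 and 1.36 beside *Atf3*. The 3 that fell were *Asns* (-1.28), *Ern1* (-1.14) and *Xbp1* (-0.35). Of antioxidant and glutathione genes, 6 of 33 members tested rose and 12 fell (median log2 fold change -0.04, series-adjusted median 0.09 with 5 called, and 5 higher and 7 lower without the 3 libraries). *Hmox1*, the haem-degrading oxygenase, rose from 28.0 ± 6.84 to 123 ± 40.5 CPM (log2 fold change 2.14, adjusted p = 0.000645). The peroxiredoxin *Prdx5* and superoxide dismutases *Sod2* and *Sod3* rose with log2 fold changes of 0.96, 0.95 and 0.85, and the glutathione transferases *Gsta3*, *Gsta4*, *Gstt3* and *Gstm5* fell with log2 fold changes of -2.26, -2.55, -1.27 and -1.57.

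Of iron handling, 7 of 16 members tested rose and 5 fell (median log2 fold change 0.32, series-adjusted median 0.07 with 4 called, and 4 higher and 3 lower without the 3 libraries). *Steap3*, a ferrireductase, the ferritin light chain *Ftl1* and the phagosomal exporter *Slc11a1* rose with log2 fold changes of 1.79, 1.13 and 1.75. *Hamp*, the liver hormone hepcidin, was at 0 in every ND library and at 1.09 to 11.2 CPM in the HFD libraries, at least 289-fold higher against a floor of 3 counts over the ND group. The summed liver list described near the end was also higher on HFD, and the part of liver RNA in the *Hamp* change was not tested. The 5 that fell were the ferritin receptor *Ncoa4* (-1.15), the iron-sensing *Aco1* (-0.85) and *Ireb2* (-0.31), the transferrin receptor *Tfrc* (-0.53) and *Slc39a14* (-0.49). *Steap4* measured 481 ± 78.0 CPM on ND and 354 ± 121 CPM on HFD (log2 fold change -0.44, adjusted p = 0.178). Of hypoxia genes, 3 of 15 members tested rose and 4 fell (median log2 fold change -0.28, series-adjusted median -0.33 with 1 called), namely *Hif1a* (0.63), *Car9* (4.06) and *Higd1a* (0.56) upward and *Ndrg1* (-1.12), *Vegfa* (-1.55), *Epas1* (-0.79) and *Slc2a1* (-0.46) downward. Of fibroblast growth factors and receptors, 3 of 12 members tested rose and 7 fell (median log2 fold change -0.73, series-adjusted median -0.48 with 4 called), namely *Fgf13* (2.53), *Fgf7* (1.38) and *Fgf1* (0.98) upward and, with the smallest adjusted p, *Fgfr2* (-2.30), *Fgfr3* (-2.89), *Fgf2* (-1.21) and *Fgfr1* (-0.79) downward. *Fgfr3* measured 20.2, 16.1, 15.2 and 19.01 CPM in the ND libraries and 1.48, 3.44, 2.60, 1.11 and 3.22 CPM in the HFD libraries. The groups were far apart (log2 fold change -2.89, SE 0.33, adjusted p = 0.000586). Of WNT signalling, 5 of 27 members tested rose and 6 fell (median log2 fold change -0.07, series-adjusted median -0.08 with 3 called, and 2 higher and 5 lower without the 3 libraries), namely *Sfrp4* (1.76), *Nkd1* (1.27), *Fzd7* (0.74), *Sfrp5* (1.84) and *Wnt5a* (0.37) upward, 3 of which encode inhibitors of the pathway (*Sfrp4*, *Sfrp5* and *Nkd1*), and *Lrp5* (-1.66), *Tcf7l1* (-0.75), *Axin2* (-1.11) and *Wnt9a* (-0.74) downward with the smallest adjusted p.

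Genes of the cell cycle rose. Of the proliferation list, 24 of 28 members tested rose (median log2 fold change 1.64, series-adjusted median 0.85 with 5 called). *Mki67* (ENSMUSG00000031004, chromosome 7, 135689784 to 135716361), the antigen Ki-67 of dividing cells, measured 10.5, 10.4, 4.76 and 6.66 CPM in the ND libraries and 63.8, 44.4, 22.7, 43.99 and 22.02 CPM in the HFD libraries. For *Mki67* libraries 3 and 5 were lowest on HFD (log2 fold change 2.28, SE 0.38, adjusted p = 0.00174, series-adjusted 1.45 and not called). The groups were apart in all 24 genes that rose, against 66.0% of all higher genes. The mitotic kinases *Cdk1* and *Aurkb*, the cyclin *Ccne1* and the thymidylate synthase *Tyms* rose with log2 fold changes of 2.90, 1.90, 1.70 and 1.23. Of senescence and p53, 8 of 17 members tested rose and 3 fell (median log2 fold change 0.34, series-adjusted median 0.20 with 2 called, and 4 higher and 2 lower without the 3 libraries). *Cdkn1a*, which encodes p21, measured 129 ± 25.1 CPM on ND and 107 ± 19.8 CPM on HFD (log2 fold change -0.27, adjusted p = 0.213), while *Cdkn2a*, of p16 and ARF, rose from 0.554 ± 0.557 to 2.66 ± 0.517 CPM (log2 fold change 2.25, adjusted p = 0.0572, series-adjusted 2.12 and not called), a call lost without ND library 3 (adjusted p = 0.113). The p53 target *Phlda3* rose from 86.0 ± 26.1 to 326 ± 119 CPM (log2 fold change 1.92, adjusted p = 0.00180), and *Bax*, *Cdkn2b* and *Ccng1* rose with log2 fold changes of 1.09, 1.40 and 0.66. The 3 that fell were *Sesn2* (-0.90), *Cdkn1c* (-0.70) and *Trp53inp1* (-0.75). Of apoptosis and necroptosis, 9 of 18 members tested rose and 1 fell (median log2 fold change 0.35, series-adjusted median 0.45 with 4 called, and 7 higher and 0 lower without the 3 libraries). The effectors *Bak1* and *Bax* and the myeloid survival genes *Bcl2a1b* and *Bcl2a1d*, which are near-identical copies, rose with log2 fold changes of 0.92, 1.09, 3.80 and 2.88, and the 1 that fell was the survival gene *Bcl2l1* (-0.90). Of Schwann cell and nerve genes, 2 of 4 members tested rose and 1 fell (median log2 fold change -0.46, series-adjusted median -0.39 with none called, and 1 higher and 1 lower without the 3 libraries), with the myelin gene *Mbp* (0.44) and *S100b* (1.19) upward, and of skeletal muscle genes, 1 of 2 members tested rose (median log2 fold change 1.01, series-adjusted median 1.03 with none called), namely *Tnni2* (2.28). Of the itaconate pathway, 1 of 7 members tested rose and 1 fell (median log2 fold change 0.19, series-adjusted median 0.22 with none called, and 0 higher and 1 lower without the 3 libraries), the first being the mitochondrial carrier *Slc25a11* (0.33) and the other *Suclg2*.

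Among protein-coding genes with groups apart and a mean of at least 5 CPM, the 10 with the highest fitted changes were genes of the liver, namely *Fabp1*, *Mup20*, *Mup17*, *Fgb*, *Mup7*, *Ces3a*, *Apob*, *Mup11*, *Apoa2* and *Serpina1e*. They encode a fatty acid carrier, major urinary proteins, fibrinogen, a carboxylesterase, apolipoproteins and antitrypsin. *Fabp1* (ENSMUSG00000054422, chromosome 6, 71199827 to 71205023) was at 0 in every ND library and between 9.21 and 96.1 CPM in the HFD libraries, highest in libraries 3 and 4. This was at least 2763-fold higher, again against 3 counts over the group, and the bounds were 2050 for *Mup20*, 1039 for *Mup17*, 752.5 for *Fgb*, 748 for *Mup7* and 599 for *Ces3a*. The *Mup* genes are near-identical copies, so that their values apart are uncertain. A list of 20 liver genes, chosen after these values were seen, summed to 15.6, 34.7, 18.4 and 37.4 RPM on ND and to 133.7, 235.8, 884.4, 973.4 and 148.2 on HFD. HFD libraries 3 and 4 were highest, and 15 of the 20 genes were under 1 CPM in every ND library. As the list was chosen for its rise, its calls are not counted here. *Alb*, albumin, measured 10.1, 9.87, 13.96 and 14.8 CPM in the ND libraries and 37.3, 68.1, 229, 221 and 39.7 CPM in the HFD libraries. HFD libraries 3 and 4 were again highest. In inguinal fat (iWAT) of the same series the list summed to between 23.6 and 43.6 RPM on ND and between 251 and 1840 on HFD.

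The 10 lowest changes by the same rule were *Cdh16*, *Cldn2*, *Ccdc187*, *Calml3*, *Cdh1*, *Dsp*, *Acsbg1*, *Acsm3*, *Cyp2f2* and *Slc30a2*, of which the cadherins *Cdh16* and *Cdh1*, the claudin *Cldn2* and the desmosome gene *Dsp* belong to epithelia. *Cdh1* (ENSMUSG00000000303, chromosome 8, 106603351 to 106670246), E-cadherin, measured 6.68, 70.5, 2.36 and 5.48 CPM in the ND libraries and 0, 0.171, 0.232, 0.237 and 1.89 CPM in the HFD libraries. ND library 2, with the highest sum of epididymal genes, was by far the highest, and ND library 3 the lowest of its group (log2 fold change -5.36, SE 1.34, adjusted p = 0.0106, series-adjusted -3.49 and not called). *Acsm3*, an acyl-CoA synthetase, fell from 26.6 ± 4.88 to 1.12 ± 0.663 CPM (log2 fold change -4.56, adjusted p = 0.000496). *Cyp2f2*, a cytochrome P450, fell from 81.6 ± 110.4 to 3.77 ± 3.10 CPM (log2 fold change -4.44, adjusted p = 0.00777, series-adjusted -5.84 and not called). Of the epididymis list, 4 of 6 members tested fell (median log2 fold change -6.26, series-adjusted median -3.997 with none called, and 0 higher and 1 lower without the 3 libraries), namely *Lcn5* (-5.91), *Adam7* (-6.11), *Crisp4* (-7.59) and *Spint4* (-6.41). Of skin and mammary epithelium genes, 5 of 6 members tested fell (median log2 fold change -3.60, series-adjusted median -2.68 with none called, and 0 higher and 1 lower without the 3 libraries), namely *Krt10* (-2.46), *Krt15* (-5.69), *Epcam* (-4.74) and *Krt7* (-1.09) and *Krt5*. *Krt5* was at 0 in every HFD library and in ND libraries 1 and 4, and measured 9.35 and 16.9 CPM in ND libraries 2 and 3, so that its mean was at least 477-fold lower on HFD against 3 counts over that group. None of the genes called in these 2 lists had its groups apart, against 63.5% apart among all lower genes. The summed epididymis list was high in ND libraries 2 and 3 and HFD library 5. A list of 14 genes of motile cilia, also chosen after the values were seen, summed to 119.8, 73.6, 5.65 and 112.7 RPM on ND and to between 6.89 and 14.8 on HFD, against 3.64 to 10.7 in iWAT. ND library 3 was thus at the HFD level. The part of epididymal, ciliated and liver RNA in other results was not tested. Over all genes, the calls without ND library 2 and HFD library 5 were 3447 higher and 3306 lower, in a fit where diet and series coincide fully.

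**Figure D5:**
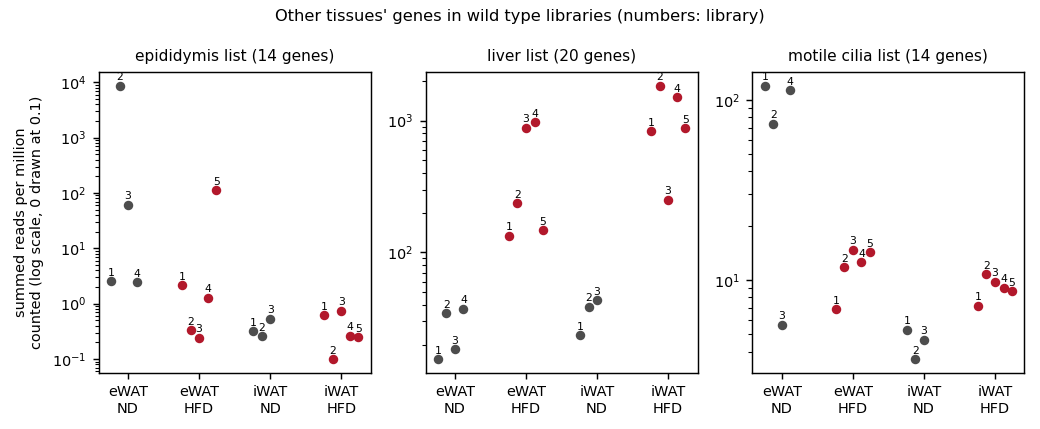
Summed RPM of genes of the epididymis (14), liver (20) and motile cilia (14) per wild type library of eWAT and iWAT, by diet, on a log axis with 0 drawn at 0.1. Epididymal genes are high in ND library 2 (8704), cilia genes in 3 of 4 eWAT ND libraries, and liver genes in every HFD library of both depots.

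By difference in CPM, the 5 genes that rose most were *Hp*, *Lep*, *Sparc*, *Ctsb* and *Psap*, and the 5 that fell most were *Car3*, *Cfd*, *Cyp2e1*, *mt-Nd5* and *Gsn*. *Car3* (ENSMUSG00000027559, chromosome 3, 14863512 to 14872523), carbonic anhydrase 3, one of the most abundant adipocyte transcripts, measured 17460, 18276, 24201 and 28648 CPM in the ND libraries and 3624, 7865, 10917, 7773 and 12890 CPM in the HFD libraries. HFD library 1 was lowest and library 5 nearest to the ND group (log2 fold change -1.36, SE 0.34, adjusted p = 0.0104, series-adjusted -0.78 and not called). *Cyp2e1* (ENSMUSG00000025479, chromosome 7, 140763739 to 140774987), a cytochrome P450 of adipocytes and liver, measured 2200, 3823, 3750 and 7032 CPM in the ND libraries and 67.4, 178, 685, 135 and 327 CPM in the HFD libraries. The fall was more than 3-fold between the nearest libraries, while liver genes were higher on HFD (log2 fold change -3.92, SE 0.65, adjusted p = 0.00181, series-adjusted -3.68 and not called). *Gsn*, the actin-severing gelsolin, fell from 8345 ± 940.4 to 5282 ± 829 CPM (log2 fold change -0.66, adjusted p = 0.0129, series-adjusted -0.47 and not called).

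The change on HFD in eWAT was compared with that in iWAT, the fat under the skin of the flank, for 16 genes chosen by their role, in a fit of the 17 wild type libraries with 3 iWAT ND and 5 iWAT HFD libraries. The fit took every library as independent. Whether the same mice gave both depots was not taken into account, and the SEs and adjusted p values below rest on that. Over all 15070 genes 5238 (34.8%) differed between depots at an adjusted p under 0.1, and 7 of the 16 did. *Itgax* rose more in eWAT, by 2.34 (SE 0.79, adjusted p = 0.0385) on the log2 scale, and so did *Mki67*, by 2.09 (SE 0.53, adjusted p = 0.00915), whose change in iWAT was 0.19. *Adgre1* and *Trem2* differed by 0.72 (SE 0.68, adjusted p = 0.468) and 0.07 (SE 0.9959, adjusted p = 0.972), which did not pass. The leptin gene changed more in iWAT, the difference for *Lep* being -1.50 (SE 0.54, adjusted p = 0.0512) and its change in iWAT 3.58. *Mest* and *Npr3* likewise differed by -2.58 (SE 0.89, adjusted p = 0.0438) and -2.12 (SE 0.52, adjusted p = 0.00790), with changes in iWAT of 6.13 and 2.89. With single libraries left out, the differences of *Lep* and *Mest* lost their calls without eWAT ND library 1 or iWAT ND library 2 or 3, and that of *Itgax* without iWAT ND library 2. *Adipoq* differed by -1.08 (SE 0.31, adjusted p = 0.0187), and it rose in iWAT (log2 fold change 0.55, adjusted p = 0.0638). *Ucp1* differed by 11.01 (adjusted p = 0.00131). Its level in iWAT was 2.69 to 593 RPM on ND and 0.370 to 1.996 on HFD, while in eWAT it was at 0 to 0.137 and 0 to 1.73. *Inhbb*, *Saa3*, *Col1a1*, *Timp1*, *Fasn*, *Slc2a4* and *Ppargc1a* did not pass, with adjusted p values between 0.101 for *Inhbb* and 0.980 for *Saa3*.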

How the data were processed

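Per the labels and the study's methods, the authors sequenced directional mRNA libraries of snap-frozen fat, trimmed reads with cutadapt, aligned them to mm10 (GRCm38) with STAR and deposited, per gene, the counts of uniquely aligned reads used here. The submitters' notes also name bedtools. The counting program and strand setting are not given in the sources used here, so values of overlapping or antisense genes are uncertain. The authors also deposited FPKM values, which were not used. The 5 classes of uncounted reads were dropped, with reads on no gene at 8.63% to 10.9% of reads on ND and 6.41% to 9.97% on HFD.

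Counts of genes that averaged 1 count or more per M counted reads were scaled by TMM and tested with edgeR 4.0.16 (glmQLFit and glmQLFTest, limma 3.58.1, R 4.3.3) on diet alone over 9 libraries, with Benjamini-Hochberg adjustment over all 14948 genes and the study's threshold of 0.1. Values with ± are means and SDs of CPM over 4 ND and 5 HFD libraries. The depot comparison fitted diet by depot over 17 libraries, with no pairing of the depots by mouse. Tables and plots were made with Python 3.11.15, pandas 2.3.3, numpy 2.4.6 and matplotlib 3.10.9. Depth was 38.93 to 52.34 M counted reads. On data simulated for this comparison, with 200 of 14948 genes changed, 11.9%, 34.3% and 80.3% of genes changed by 1.5-, 2- and 4-fold were recovered and 4.55% of calls were unchanged genes. In the real data 54.1% of genes were called, so that these shares need not hold for the real calls. The simulated data also held no difference between series and no epididymal RNA.

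Of each of 72 gene lists, the text names chosen key genes whatever their values, up to 4 called genes per direction with the smallest adjusted p, and all genes of a count of 5 or fewer, except some that are not reported here. It also names, per direction, the 10 called protein-coding genes with the largest fold change, groups apart and a mean of at least 5 CPM, and the 5 with the largest difference in CPM. The comparison, genes and lists were chosen with earlier results of these data known, and the liver and motile cilia lists after their values were seen. Alternatives were the filter on low counts, DESeq2 1.42.0 as a test or for its size factors, the threshold, all eWAT groups in 1 fit, the series read from the headers' prefixes, the replicate number and leaving out each library. Leaving out the libraries with epididymal genes, and the series term in the fit of all eWAT groups, were added after seeing the data.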

Additional observations from a re-analysis of the deposited data

Results flagged for a closer look

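Single libraries far from the others of their group were found in 24 of 236 groups examined, which were 101 named genes and 17 summed marker lists on each diet, and chance flags about 1 in 20 groups. HFD library 1 was apart for *Mmp12* (1082 CPM), *Il1rn* (76.7 CPM) and *Il33* (16.8 CPM), where it was highest, and for *Sparc* (4261 CPM), *Gsn* (3852 CPM) and *Srebf1* (75.5 CPM), where it was lowest. HFD library 4 was the highest for *Ccl2* (56.8 CPM), *Arntl* (16.6 CPM) and the chaperone gene *Hspa5* (1201 CPM). HFD library 5 was the highest for *Msln* (25.0 CPM), *Cdh1* (1.89 CPM), *Cdh16* (0.182 CPM) and the summed epididymis list (117.8 CPM).

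Among ND libraries, library 1 was the highest for the macrophage genes *Adgre1* (44.1 CPM) and *Cd68* (38.9 CPM) and for *Col6a3* (169.9 CPM), and the lowest for *Mlxipl* (54.5 CPM). Library 2 was the highest for *Cdh1* (70.5 CPM), the summed epididymis list (8401 CPM) and the summed Schwann cell and nerve list (153.3 CPM), and the lowest for *Ctsb* (1397 CPM). Library 4 was the highest for *Scd1* (41503 CPM), *Cyp2f2* (246 CPM) and *Mup11* (0.159 CPM).

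The diet change differed between the depots, by the interaction test of edgeR adjusted over all genes, in 7 of 16 genes. On the log2 scale, with iWAT subtracted from eWAT, the difference was -1.50 for *Lep*, -1.08 for *Adipoq*, -2.58 for *Mest*, -2.12 for *Npr3*, 2.34 for *Itgax*, 11.01 for *Ucp1* and 2.09 for *Mki67*. The value for *Ucp1* rests on counts near 0 in eWAT and on iWAT ND libraries that spread from 2.69 to 593 RPM.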

How the results depend on the processing

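Against 3868 higher and 4219 lower genes, the counts were 1030 and 581 once the series entered the fit, 1274 and 1133 within the series that holds both diets, which has 1 HFD library, and 2642 and 2560 with the series term in the fit of all eWAT groups. Of the 8087 genes called, 8005 had the same sign with the series term and 1593 kept their call. The main calls used HFD library 5 and the same ND libraries, so that this agreement in sign is in part built in. Without ND libraries 2 and 3 and HFD library 5 the counts were 2612 and 2483, in a fit where diet and series coincide fully. The causes were not tested. Leaving out single libraries gave 3345 to 3874 higher and 3468 to 4267 lower genes, and 3825 to 5474 depot differences. Other settings stayed within 1.5 times, with DESeq2 at 4200 and 4104.

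Among the key genes named, directions turned as follows. With the series in the fit and within the series of both diets, the log2 fold changes were -0.013 and -0.0063 for *Cpa3*, -0.13 and -0.13 for *Il33*, -0.84 and -0.84 for *Cd3e*, -1.11 and -1.11 for *Tnf*, 0.0056 and 0.0056 for *Acta2*, 0.40 and 0.40 for *Msln*, 0.17 and 0.17 for *Hk2* and -0.15 and -0.15 for *Hspa5*. Without ND libraries 2 and 3 and HFD library 5 they were 0.15 for *Lyve1*, 0.0358 for *Irf7* and -0.06586 for *Prkar2b*, and without ND library 2 and HFD library 5 -0.08509 for *Prkar2b*. With the series term in the fit of all eWAT groups they were 0.0761 for *Lyve1* and 0.41 for *Cdkn1a*. With the series term the depot difference of *Saa3* was 0.0800. With single libraries left out, values ranged from -0.37 to 0.21 for *Lyve1*, -0.30 to 0.0285 for *Irf7*, -0.0628 to 0.14 for *Prkar2b* and -0.21 to 0.40 for *Hspa5*, and the depot differences from -0.40 to 0.61 for *Saa3*, -0.39 to 0.69 for *Trem2*, -0.37 to 0.0475 for *Col1a1* and -0.67 to 0.43 for *Fasn*. Of the values that turned, that of *Cpa3* had been called and the others had not.

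With the replicate number as a replicate block, 3681 genes were higher and 3847 lower, and 4482 depot differences were called. The labels do not say that a number marks a shared litter or day, and the deviations of same-numbered libraries correlated by 0.17, -0.18, 0.16 and 0.15, so that the numbers were not taken to pair the mice. Under the block *Npr3*, *Dgat2* and the depot difference of *Lep* lost their calls, and *Adipoq*, *Hk2*, *Il33*, *Msln*, *Scd1*, *Srebf1* and *Tnf* gained one. Genes averaging under 1 RPM were left out of the tests for their low counts, and with the series term in the fit of these 9 libraries the diet change rests on 1 HFD library.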
